A study of Rattus norvegicus with 6 samples.

Results

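The muscle miRNAs miR-1, miR-133a, miR-133b and miR-206 were measured by RT-qPCR in the left ventricle of 3 OLETF rats and 3 LETO rats. They were taken from the table of threshold cycles by exact assay name, which gave 5 of 584 miRNA assays: 1 assay each for miR-133a, miR-133b and miR-206, and 2 for miR-1, named for rat and for mouse and kept apart here. OLETF (Otsuka Long-Evans Tokushima Fatty) is an inbred rat strain that becomes obese and develops type 2 diabetes. LETO (Long-Evans Tokushima Otsuka) is its non-diabetic control strain. The labels give OLETF hearts as diabetic and LETO hearts as healthy controls. All rats were anaesthetized and ventilated before the heart was taken and frozen, and no agent is named for either group. The sources used here do not state an age. Strain, obesity and diabetes fall together, so a difference between the groups cannot be assigned to any of them. The replicates are labelled as separate tissue samples, and the p-values speak only for the spread among these 6. As the tissue was analysed whole, fewer muscle cells and less miRNA per muscle cell cannot be told apart.

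miR-1 and miR-133 are made from shared precursor transcripts in heart and skeletal muscle, and miR-206 and miR-133b from a second cluster that is known for its activity in skeletal muscle. In mouse heart and in cultured muscle cells, miR-1 is known to promote muscle differentiation and to set the levels of ion channel and calcium handling proteins, while miR-133 restrains cardiomyocyte growth and keeps smooth muscle genes low. miR-206 is known from mouse skeletal muscle, where it acts in regeneration and at the nerve-muscle junction.

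The mature sequences are shown because the 4 miRNAs fall into a pair of seed groups that cut across the clusters, and because assays on this platform must tell near-identical molecules apart. They are the rat entries of RefSeq on GRCr8, printed 5′ to 3′ with the seed (bases 2 to 8) in capitals.

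rno-miR-1-3p: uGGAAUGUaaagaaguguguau

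rno-miR-1b: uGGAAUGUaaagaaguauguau

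rno-miR-206-3p: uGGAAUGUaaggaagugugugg

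rno-miR-133a-3p: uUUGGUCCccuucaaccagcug

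rno-miR-133b-3p: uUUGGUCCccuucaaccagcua

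miR-1-3p, miR-1b and miR-206-3p share 1 seed, and no other of the 693 mature miRNA names in the table has it. miR-133a-3p and miR-133b-3p share the other seed, again alone. Counted from base 1 at the 5′ end, miR-133b-3p differs from miR-133a-3p by G22A only, the last base. miR-206-3p differs from miR-1-3p by A11G, A21G and U22G. miR-1b differs from miR-1-3p by G17A. The sequence listed as rat miR-1b is that known for mouse miR-1a, so the rat and the mouse miR-1 assays may be directed at different rat molecules. The assays' own target sequences were not used here, and their selectivity was not tested.

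On GRCr8 the Mir1 hairpin lies at chr18:2160327-2160413 and Mir133a1 at chr18:2157872-2157958, both on the minus strand and 2368 bases apart, within the span of the protein-coding gene Mib1. Mir206 lies at chr9:30590697-30590780 and Mir133b at chr9:30594582-30594665, both on the plus strand and 3801 bases apart, within the lncRNA LOC120094648. Mir1b lies at chr3:187864685-187864769 and overlaps no other gene of the table. The table used here does not give exons, so exon or intron is not stated for these hairpins.

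A threshold cycle (Ct) is the PCR cycle at which a well crosses a fixed brightness, so abundant RNA gives a low Ct, and a step of 1 cycle stands for 1 log2 unit where amplification is complete. A mean Ct of 35 or more was treated as not measured. Each sample was run on a pair of cards of 384 wells, which are called A and B. The miR-1 and miR-133 assays had 1 well each on card A, and miR-206 had 2 wells on card B. Between 197 and 228 assays were measured per OLETF sample, and between 202 and 292 per LETO sample. LETO replicate 3 stood apart: over the 122 assays of card A measured in all samples, its Ct lay a median 3.30 cycles below the mean of LETO replicates 1 and 2, while U6 on that card lay only 0.443 cycles below.

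miR-133a was the most abundant miRNA of card A by Ct in all 6 samples, ranking 1 of 122. Its Ct was 17.3, 17.8 and 17.3 in OLETF replicates 1, 2 and 3, and 17.8, 17.5 and 16.6 in LETO replicates 1, 2 and 3. The next assay by mean Ct was miR-126-3p, an endothelial miRNA, at 19.5 against 17.4 for miR-133a. Ranks between assays rest on equal amplification by each assay, which was not tested.

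The rat miR-1 assay ranked 9, 10 and 12 in OLETF samples and 10, 7 and 6 in LETO samples. Its Ct was 22.9, 23.1 and 22.3 in OLETF, and 23.7, 23.1 and 20.1 in LETO. miR-133b ranked 14 in 5 samples and 15 in LETO replicate 1, with a Ct of 24.1, 24.6 and 22.6 in OLETF, and 24.9, 24.5 and 21.1 in LETO. Both assays thus fell among the abundant miRNAs of every ventricle, below miR-133a. The mouse miR-1 assay came later, at a Ct of 26.8, 28.0 and 26.0 in OLETF, and 26.8, 25.6 and 25.3 in LETO, with ranks from 20 to 45.

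miR-206 was close to the detection limit. Over its 2 wells the mean Ct was 35.4, 33.8 and 32.1 in OLETF, and 32.7, 32.9 and 29.2 in LETO. OLETF replicate 1 therefore counted as not measured, and its wells differed by 2.19 cycles. In the other 5 samples the wells differed by at most 0.826 cycles, against an SD of a single well of 0.486 cycles over 189 pairs of wells on card B. In order of mean Ct, the 5 assays ran from miR-133a through the rat miR-1 assay, miR-133b and the mouse miR-1 assay to miR-206. The Ct ranges of the rat miR-1 assay and miR-133b overlapped over the 6 samples, but the rat miR-1 assay had the lower Ct within each of them, by 0.367 to 1.46 cycles.

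**Figure D1:**
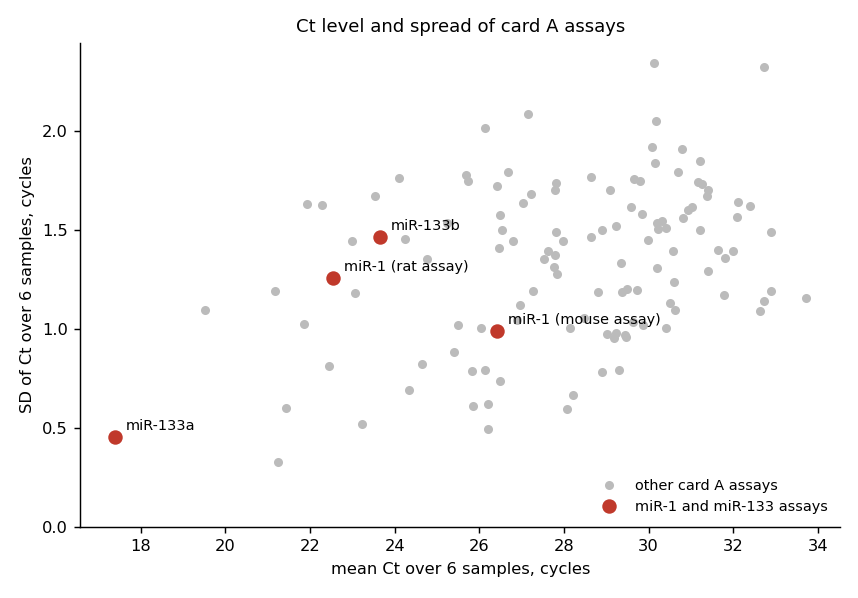
Mean Ct (x axis, cycles) and SD of Ct over the 6 samples (y axis, cycles) of the 122 card A assays measured in all samples; red points are the miR-1 and miR-133 assays and grey points the others. miR-133a sits at the lowest mean Ct, 17.4, with an SD of 0.452, while miR-133b has an SD of 1.46.

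The muscle miRNAs differed in how far they moved between samples. The SD of Ct over all 6 samples was 0.452 cycles for miR-133a, the second smallest of the 122 card A assays, against a card median of 1.39. It was 0.990 cycles for the mouse miR-1 assay, 1.26 for the rat miR-1 assay and 1.46 for miR-133b. Without LETO replicate 3 the order changed: the SDs were 0.256 cycles for miR-133a, the smallest of the 122, 0.499 for the rat miR-1 assay, 0.884 for miR-133b and 0.910 for the mouse miR-1 assay, against a card median of 0.873. In LETO replicate 3 itself, against the mean of LETO replicates 1 and 2, Ct was lower by 3.22 cycles for the rat miR-1 assay and 3.55 for miR-133b, near the card median of 3.30. For the mouse miR-1 assay it was lower by 0.925 cycles and for miR-133a by 1.06, outside the card's interquartile range of 2.30 to 3.92. In that heart the shifts of miR-133a and the mouse miR-1 assay thus lay closer to that of U6 (lower by 0.443) than to the card median. From the largest drop to the smallest, the mouse miR-1 assay ranked 121 of 122 and miR-133a 118. Some other card A miRNAs thus also fell by less than miR-133a. In the same heart the controls U87 and snoRNA135 were lower by 3.16 and 3.79 cycles. The control Y1 moved most, from a Ct of 30.1 and 32.5 in LETO replicates 1 and 2 to 24.8.

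Relative to U6, the endogenous control named in the labels, all 5 muscle assays averaged lower in OLETF than in LETO ventricles, and none passed the test. A level here is minus the difference between an assay's Ct and that of U6 on the same card, on the log2 scale. The fitted differences of OLETF minus LETO ran from -0.43 for miR-133a to -1.31 for the mouse miR-1 assay, with a median of -0.75 over the 5. Over all 193 assays tested, 156 (80.8%) averaged lower and the median was -0.60. None of the 5 passed an adjusted p of 0.05, as none of the 193 did (0%; limma, Benjamini-Hochberg). At an unadjusted p under 0.05 the counts were 0 of the 5 and 2 of 193 (1.04%), or 0 of the 5 and 1 of 193 with the ordinary per-assay test. With U6 the limma SE was in effect pooled over assays, so the intervals below do not give each assay's own spread. The SE of the ordinary per-assay test ran from 0.499 for miR-133a to 2.35 for miR-206.

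miR-133a lay at 0.33, 0.15 and 0.90 log2 units relative to U6 in OLETF replicates 1, 2 and 3, and at 1.36, -0.00014 and 1.30 in LETO. The groups overlapped, with 6 of 9 OLETF and LETO pairs lower in OLETF. The difference was -0.43 (SE 1.38, 95% interval -3.13 to 2.28, limma adjusted p = 0.997, exact permutation p = 0.4). It turned to 0.06 with the median of both cards as reference and to 0.42 with the remaining small RNA controls of the card, which were U87, snoRNA135 and Y1 and are called the other small RNA controls below.

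miR-133b lay at -6.50, -6.66 and -4.41 relative to U6 in OLETF, and at -5.67, -7.03 and -3.24 in LETO. Replicate 3 was highest in both groups and the groups overlapped. The difference was -0.54 (SE 1.38, 95% interval -3.25 to 2.16, limma adjusted p = 0.997), 0.31 with the other small RNA controls, and 0.49 without LETO replicate 3.

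The rat miR-1 assay lay at -5.31, -5.19 and -4.05 relative to U6 in OLETF, and at -4.46, -5.60 and -2.25 in LETO. The lowest and the highest values were both from LETO. The difference was -0.75 (SE 1.38, 95% interval -3.45 to 1.96, limma adjusted p = 0.997), 0.11 with the other small RNA controls and 0.18 without LETO replicate 3.

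The mouse miR-1 assay lay at -9.19, -10.04 and -7.82 relative to U6 in OLETF, and at -7.60, -8.13 and -7.38 in LETO. OLETF was lower in 8 of 9 pairs, the exception being OLETF replicate 3 over LETO replicate 2. The difference was -1.31 (SE 1.38, 95% interval -4.02 to 1.39, limma adjusted p = 0.997, exact permutation p = 0.2). The value stayed below 0 in each of the 21 alternatives run on it, from -1.92 to -0.46. Several of these, such as Ct limits of 32 and 38 and the ordinary per-assay test, could not change it. With array weights, which gave LETO replicates 2 and 3 weights of 0.329 and 0.237 against 3.02 for LETO replicate 1, the difference was -1.92 and its limma adjusted p 0.0425, among 30 of 193 assays called. Without LETO replicate 3 it was -1.15, and without OLETF replicate 2, the lowest sample, -0.80.

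miR-206 lay at -16.93 and -14.23 relative to U6 in OLETF replicates 2 and 3, and at -14.93, -16.81 and -11.21 in LETO. The fit left out OLETF replicate 1. The groups overlapped, and the difference was -1.27 (SE 1.54, 95% interval -4.29 to 1.76, limma adjusted p = 0.997). It turned to 0.29 without LETO replicate 3, the sample with the highest level. In the authors' deposited table, the ratios of OLETF over LETO were 0.175 and 0.264 for its 2 wells, both lower than the ratio of 0.416 from this fit. The deposited values kept OLETF replicate 1. With a Ct limit of 38, which also kept that sample, the miR-206 difference was -2.22 (SE 1.45, limma adjusted p = 0.992). The authors' deposited table gave 0.744 for miR-133a, 0.687 for miR-133b, 0.596 for the rat miR-1 assay and 0.402 for the mouse miR-1 assay. These equal 2 to the power of the U6 differences above and are no separate evidence.

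Relative to the median of their card, the 5 assays again averaged lower in OLETF, and again none was called. The limma SEs were smaller than with U6, where they were in effect pooled over assays. With the ordinary per-assay test the SE fell for the rat miR-1 assay (1.06 to 0.0913), miR-133b (1.32 to 0.283) and miR-206 (2.35 to 0.789). It rose for the mouse miR-1 assay (0.683 to 0.874) and miR-133a (0.499 to 0.791). The median difference of the 5 was -0.54, against -0.31 over all 193 assays, of which 130 (67.4%) averaged lower. None of the 5 and none of the 193 passed an adjusted p of 0.05 (0%; limma), and at an unadjusted p under 0.05 the counts were 0 of the 5 and 12 of 193 (6.22%). With the ordinary per-assay test they were 1 of the 5, the rat miR-1 assay, and 11 of 193. The card median was taken over the assays measured in all 6 samples, 122 of card A and 40 of card B, and its Ct on card A was 28.93, 29.01 and 27.96 in OLETF, against 30.02, 29.52 and 26.50 in LETO.

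The rat miR-1 assay was the only one of the 4 card A muscle assays whose groups did not overlap under this reference. Its level was 5.98, 5.88 and 5.69 in OLETF, and 6.36, 6.46 and 6.36 in LETO. Every OLETF sample lay below every LETO sample, and the means were 5.85 ± 0.15 and 6.39 ± 0.06 (SD, n = 3 each). The difference was -0.54 (SE 0.336, 95% interval -1.31 to 0.22, limma adjusted p = 0.632), and the exact permutation p was 0.1, which no comparison of 3 with 3 samples can go below. With the ordinary per-assay test the SE was 0.0913 and the adjusted p was 0.221. Of all 162 assays measured in every sample, 15 (9.26%) were likewise lower in OLETF without overlap and 7 (4.32%) higher, so such a pattern was not rare on these cards. The separation depended on the reference: OLETF was lower in 8 of 9 pairs with the median of both cards (difference -0.26), and in 5 of 9 pairs with U6 or with the other small RNA controls (difference 0.11). With 1 sample left out, the card-median difference ran from -0.61 to -0.46, and it was -0.32 with a Ct limit of 32 and -0.38 with a limit of 38.

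miR-133b lay at 4.79, 4.41 and 5.32 relative to the card median in OLETF, and at 5.15, 5.02 and 5.37 in LETO. OLETF was lower in 7 of 9 pairs and the difference was -0.34 (SE 0.383, 95% interval -1.21 to 0.53, limma adjusted p = 0.724). For the other miRNA of that seed, miR-133a, levels were 11.62, 11.21 and 10.64 in OLETF, and 12.18, 12.06 and 9.91 in LETO. Here LETO replicate 3 was the lowest of all 6 samples, whereas it was the highest for miR-133b. The miR-133a difference was -0.22 (SE 0.635, 95% interval -1.68 to 1.23, limma adjusted p = 0.870). It was -0.96 without LETO replicate 3. It was above 0 without OLETF replicate 3 (0.03), LETO replicate 1 (0.18) or LETO replicate 2 (0.11), so its direction changed with the sample left out.

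The mouse miR-1 assay lay at 2.10, 1.03 and 1.92 relative to the card median in OLETF, and at 3.22, 3.93 and 1.23 in LETO. LETO replicates 1 and 2 were above all OLETF samples and LETO replicate 3 was below 2 of them. The difference was -1.11 (SE 0.685, 95% interval -2.67 to 0.45, limma adjusted p = 0.632). It was -1.89 without LETO replicate 3 (limma adjusted p = 0.346; over the 16 alternatives it ran from 0.241 to 0.998) and -0.54 without LETO replicate 2. miR-206 lay at -3.77 and -3.49 in OLETF replicates 2 and 3, and at -3.53, -2.63 and -1.43 in LETO. The difference was -1.10 (SE 0.636, 95% interval -2.58 to 0.38, limma adjusted p = 0.632, 5 of 6 pairs lower in OLETF), and -0.55 without LETO replicate 3.

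**Figure D2:**
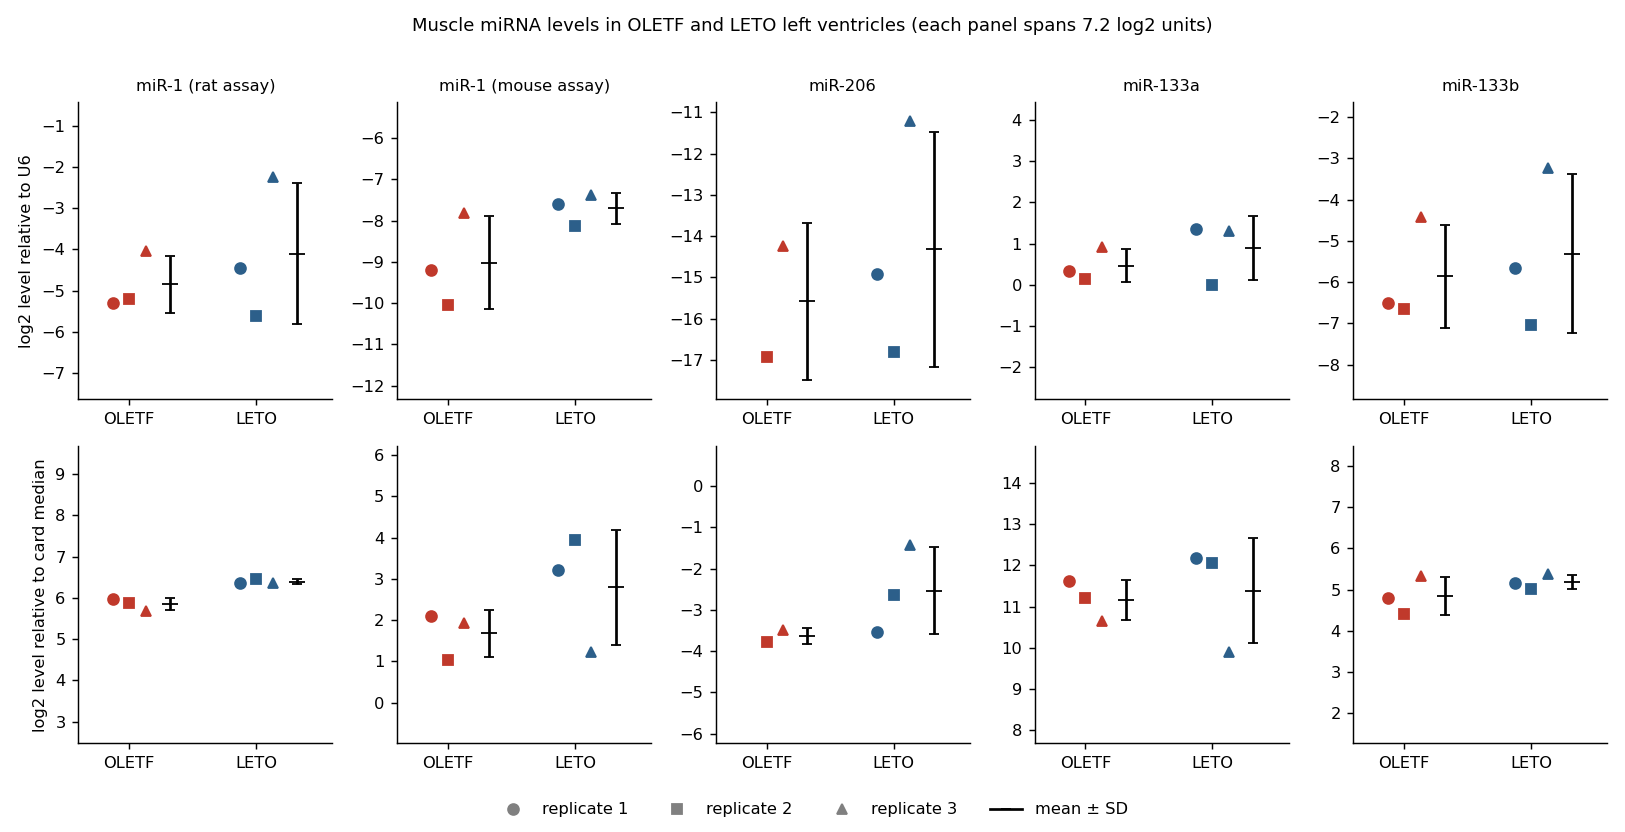
Levels of the 5 muscle assays in each OLETF (left, red) and LETO (right, blue) sample, on the log2 scale, relative to U6 of the same card (top) and to the card median (bottom); the black bar is the mean ± SD, and miR-206 has 2 OLETF samples. The groups overlap in each top panel, while for the rat miR-1 assay in the bottom row OLETF samples lie at 5.69 to 5.98 and LETO samples at 6.36 to 6.46.

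A change of reference shifts every assay of a card measured in the same samples by the same amount, the muscle assays included. With the median of both cards, 4 of the 5 averaged lower in OLETF, against 120 of 193 (62.2%) of all assays. miR-206 had the largest size among the 5 there, at -1.34 (SE 0.499, 95% interval -2.48 to -0.21, limma adjusted p = 0.401), with levels of -4.45 and -3.79 in OLETF, against -2.73, -3.10 and -2.50 in LETO, both OLETF values lying below the 3 LETO values. Over the same 5 samples, 18 of the 162 assays measured in all samples (11.1%) were likewise lower in OLETF without overlap. miR-206 was among 17 of 193 assays (8.81%) at an unadjusted limma p under 0.05. miR-206 is on card B, where all assays had a median difference of -0.93 under that reference, against -0.00011 on card A. With the other small RNA controls, 2 of the 5 averaged lower, the mouse miR-1 assay at -0.46 and miR-206 at -0.31, against 40 of 193 (20.7%) of all assays, whose median difference was 0.45. Without LETO replicate 3, all 5 were below 0 with these controls. They ran from -1.65 for the mouse miR-1 assay to -0.0019 for miR-133b, against a median of 0.04 over 178 assays.

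**Figure D3:**
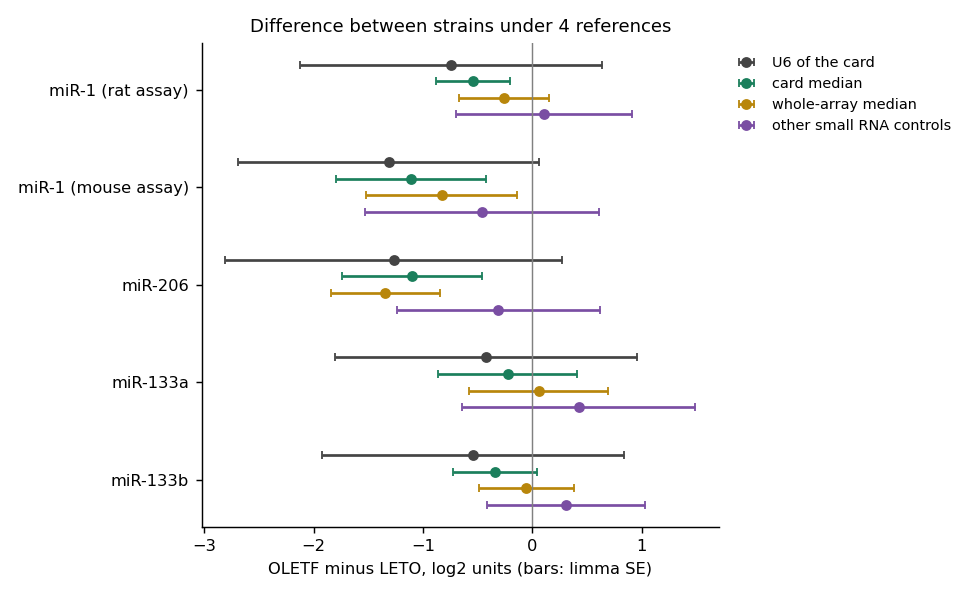
Difference of OLETF minus LETO (x axis, log2 units) for each muscle assay under 4 references, with bars of 1 limma SE. The mouse miR-1 assay and miR-206 are below 0 under all 4, while miR-133a is above 0 with the median of both cards (0.06, drawn as whole-array median) and with the other small RNA controls (0.42).

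A difference in Ct between assays of the same card in the same sample needs no reference, so the muscle miRNAs were also compared with each other. All 6 pairs of card A assays were examined, and the strains overlapped in each. The smallest exact permutation p was 0.2, and all were 1 after Benjamini-Hochberg adjustment over the 6 pairs.

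Within the miR-1 and miR-133a cluster, the rat miR-1 assay came 5.63, 5.34 and 4.95 cycles after miR-133a in OLETF, and 5.82, 5.60 and 3.55 cycles after it in LETO. LETO replicate 3 was below all the others. The strains differed by 0.318 cycles (exact permutation p = 0.9), which turned to -0.403 without LETO replicate 3. Between the near-identical miR-133b and miR-133a, the gap was 6.83, 6.80 and 5.32 cycles in OLETF, and 7.03, 7.03 and 4.54 in LETO, with replicate 3 lowest in both strains. The strains differed by 0.115 cycles (exact permutation p = 1), or -0.716 without LETO replicate 3.

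Between the assays of different clusters, miR-133b came 1.19, 1.46 and 0.367 cycles after the rat miR-1 assay in OLETF, and 1.21, 1.43 and 0.991 cycles in LETO. The SD of this gap over the 6 samples was 0.403 cycles, against 0.841 for the rat miR-1 assay and miR-133a of 1 cluster. That order rested on LETO replicate 3: without it the SDs were 0.446 and 0.337. The strains differed by -0.203 cycles (exact permutation p = 0.8), or 0.117 without OLETF replicate 3.

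The 2 miR-1 assays did not run in parallel. The mouse assay came 3.89, 4.84 and 3.77 cycles after the rat assay in OLETF, and 3.14, 2.53 and 5.13 cycles in LETO. The lowest 2 gaps and the highest were all in LETO. The strains differed by 0.568 cycles (exact permutation p = 0.5), or 1.34 without LETO replicate 3. Against miR-133a the gap of the mouse assay was 9.52, 10.2 and 8.73 cycles in OLETF, and 8.96, 8.13 and 8.68 in LETO. OLETF was higher in 8 of 9 pairs, with a difference of 0.887 cycles (exact permutation p = 0.2) that ran from 0.533 to 1.26 with 1 sample left out. This was the largest strain difference of the 6 gaps over all samples; without LETO replicate 3 it was 0.932, below the 1.34 of the mouse and rat miR-1 assays and the 1.65 of the mouse miR-1 assay and miR-133b.

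**Figure D4:**
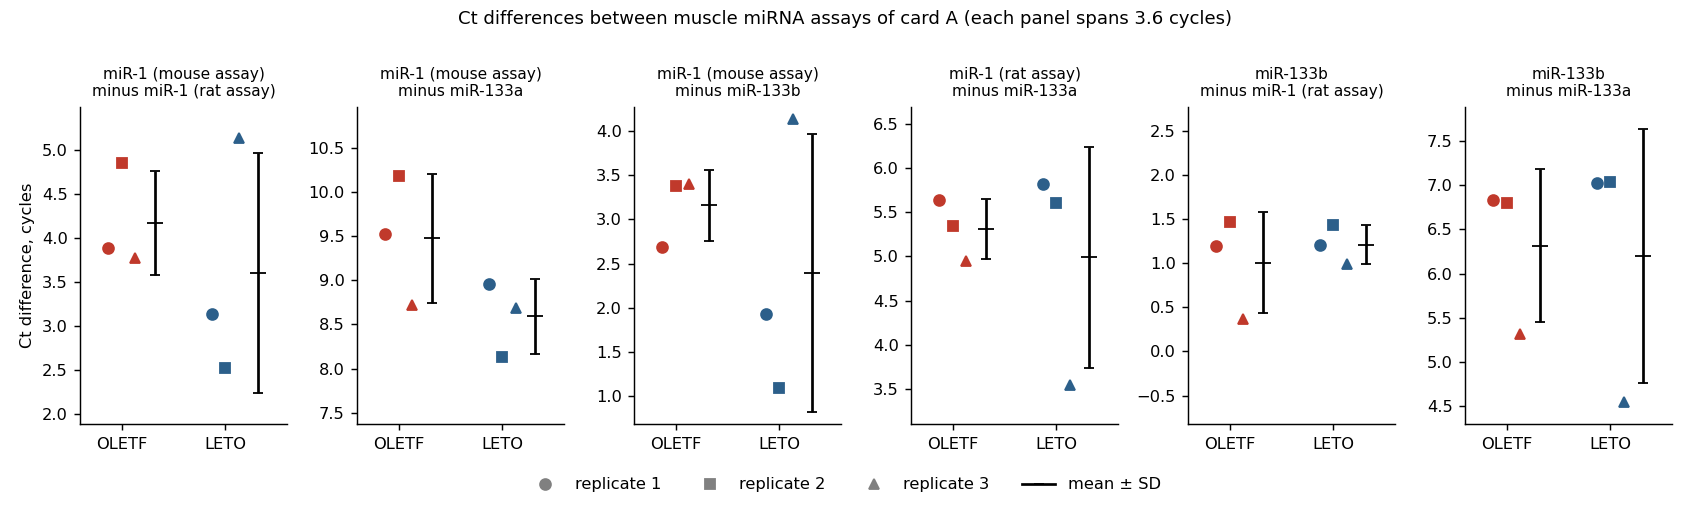
Ct differences (y axis, cycles) between the 6 pairs of miR-1 and miR-133 assays on card A, in OLETF (left, red) and LETO (right, blue) samples, with the mean ± SD in black. In each panel the strains overlap; LETO replicate 3 (blue triangle) has the smallest gap between miR-133b and miR-133a, 4.54 cycles.

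The miR-206 and miR-133b cluster was split over both cards, so its members were compared through the U6 of each card. miR-133b exceeded miR-206 by 10.28 and 9.82 log2 units in OLETF replicates 2 and 3, and by 9.26, 9.78 and 7.97 in LETO. Both OLETF values lay above the 3 LETO values, and the group means differed by 1.05 (exact permutation p = 0.2), or by 0.53 without LETO replicate 3. The separation was narrow: OLETF replicate 3 (9.82) and LETO replicate 2 (9.78) lay closer than the SD of a single well on card B, 0.486 cycles. How often other pairs of assays separate in this way was not tested. Relative to the card medians the difference was 0.79 (0.33 without LETO replicate 3) with 5 of 6 pairs higher in OLETF, so the separation did not hold under that reference.

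Among the 121 other assays of card A measured in all samples, those most like the rat miR-1 assay were miR-30e, miR-99b and miR-322, by the SD over the 6 samples of their Ct minus its Ct. These SDs were 0.230, 0.235 and 0.256 cycles, against a median of 0.624 over the 121. Of the muscle assays, miR-133b came 20th in that order, miR-133a 99th and the mouse miR-1 assay 110th. Those most like miR-133a were miR-146b, miR-150 and miR-191, at 0.307, 0.313 and 0.323 cycles against a median of 0.990. There the mouse miR-1 assay came 30th, the rat assay 45th and miR-133b 69th. These orders also rested on LETO replicate 3. Without it those most like the rat miR-1 assay were miR-139-5p, miR-339-3p and miR-342-3p (0.127, 0.136 and 0.159), with miR-133a 28th, miR-133b 50th and the mouse miR-1 assay 108th. Those most like miR-133a were then miR-191, miR-146b and the rat miR-1 assay (0.188, 0.293 and 0.337). The Ct values compared share the card and the RNA of each sample, and this likeness is a description over 6 samples.

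The other muscle miRNAs on the cards were miR-208 and miR-208b, encoded in the alpha and beta cardiac myosin genes, miR-499, encoded in a further myosin gene, and miR-486, abundant in muscle and in red cells. Every sample gave a value for all 4. Relative to U6, 3 of the 4 averaged lower in OLETF (median -0.31), and relative to the card median 3 of 4 (median -0.10). None passed (limma, smallest adjusted p = 0.997 and 0.622). miR-499 had levels of 0.28, 0.35 and 0.59 relative to the card median in OLETF, and 1.45, 1.14 and 1.32 in LETO. Like the rat miR-1 assay it was lower in every OLETF sample, with a difference of -0.90 (SE 0.342, limma adjusted p = 0.622). It was among the 15 of 162 assays (9.26%) with that pattern. Relative to U6 its groups overlapped, with 6 of 9 pairs lower in OLETF (difference -1.10), and with the other small RNA controls the difference was -0.25. Relative to the card median, miR-208 differed by -0.07, miR-208b by -0.14 and miR-486 by 0.47, each with overlapping groups.

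Markers of other cells in the tissue were present beside the muscle miRNAs. Over endothelial miR-126-3p and miR-126-5p, the mean level relative to the card median was 6.42 to 7.17 in OLETF and 6.81 to 7.04 in LETO, and over smooth muscle miR-143 and miR-145 it was 3.46 to 4.38 in OLETF and 3.61 to 4.86 in LETO. Over the 4 leukocyte markers (miR-223, miR-142-3p, miR-150 and miR-155) it was 2.29 to 2.49 in OLETF and 1.62 to 2.57 in LETO. The ranges overlapped for each list. Of the red cell markers, miR-486, which is also abundant in muscle, was measured in every sample. Its level relative to the card median was 5.17 to 6.05 in OLETF and 3.78 to 6.13 in LETO. miR-451 had no determined well in OLETF and was measured in 1 LETO sample, and no assay was named miR-144. The part of these cells in the muscle miRNA values was not tested.

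The passenger strands of the same hairpins were near or past the limit. miR-133a*, the other arm of miR-133a, had a mean Ct of 34.98 and 34.46 in OLETF replicates 1 and 3 with no determined well in replicate 2, and 34.39, 35.02 and 32.06 in LETO. miR-1* was determined in 1 OLETF sample at a Ct of 37.9, and in 2 LETO samples at 36.1 and 35.6.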

How the data were processed

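MicroRNA of 6 left ventricles was isolated with a mirVana kit, copied with a Megaplex stem-loop primer pool and amplified on TaqMan rodent cards, per the labels' protocols. The labels also name SYBR Green as the label. Threshold settings are not given in the sources used here. The deposited values were Ct per well, delta Ct against U6 (on the log2 scale, higher for less RNA), and a linear ratio (fold) of the OLETF mean over the LETO mean, per the file headers. For the card A muscle assays, the deposited delta Ct equalled Ct minus the average over the 4 wells of U6 on that card within 1.5e-06.

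From the Ct table, determined wells were averaged per assay, and a mean of 35 or more was not measured. Assays with a measured value in 2 or more samples per group, 193 of 584, were fitted with limma 3.58.1 in R 4.3.3 (lmFit and eBayes, two-sided). P-values were adjusted over all 193 (Benjamini-Hochberg, threshold 0.05). With U6, the SE was in effect pooled over assays: the 4 card A muscle assays share an SE of 1.38. Exact permutation tests were two-sided, with no p below 0.1 for 3 against 3. The fit was tested only on simulated data with independent noise and planted differences larger than those of the muscle assays. That test does not speak for differences of the size seen here.

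Named were the 5 assays, the controls, a list of other muscle miRNAs, markers of other cells, and the 3 assays with the most constant Ct difference to the rat miR-1 assay and to miR-133a. Members and lists were chosen with earlier results of these data known. The labels give both groups replicate numbers 1 to 3. Deviations from the group means correlated at -0.088, 0.228 and 0.616 between same-numbered samples, so samples were not paired by number. Alternatives were other references, Ct limits, filters, blocks, array weights, the deposited delta Ct and each sample left out.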

Additional observations from a re-analysis of the deposited data

How the results depend on the processing

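The raw Ct without a reference, the ordinary test under the card median, the other small RNA controls without LETO replicate 3, the SDs, likeness and cross-card difference without LETO replicate 3, and the non-overlap count without OLETF replicate 1 were chosen after seeing the data. The number of assays past an adjusted p of 0.05 (limma) was 0 with either reference and 0 with each sample left out. It was 1 with U6 and the replicate block, 30 with array weights and 1 with replicate 3 as a batch, and what causes this was not tested. The replicate block changed no call among the 5 muscle assays. With array weights and U6 the mouse miR-1 assay passed (-1.92). With the other small RNA controls the difference relative to U6 changed sign for the rat miR-1 assay (0.11), miR-133a (0.42) and miR-133b (0.31), and with the whole-array median for miR-133a (0.058). With the other small RNA controls and without LETO replicate 3, the differences of the rat miR-1 assay, miR-133a and miR-133b were -0.31, -0.72 and -0.0019. A Ct limit of 32 turned the card-median difference of miR-133a to 0.0027. Limits of 32 and 38 gave -0.11 and -0.18 for miR-133b. For miR-206, a limit of 38 moved the difference from -1.27 to -2.22 relative to U6, and from -1.10 to -0.93 relative to the card median. With 1 sample left out, differences relative to U6 ran from -1.91 to -0.80 for the mouse miR-1 assay, -1.49 to 0.18 for the rat assay, -0.87 to -0.19 for miR-133a, -1.40 to 0.49 for miR-133b and -2.52 to 0.29 for miR-206. Relative to the card median they ran from -1.89 to -0.54, -0.61 to -0.46, -0.96 to 0.18, -0.58 to -0.13 and -1.60 to -0.55 in the same order; for miR-133a they were above 0 without OLETF replicate 3 (0.03), LETO replicate 1 (0.18) or LETO replicate 2 (0.11). The Ct gaps between assays ran from 0.0315 to 1.34 cycles (mouse and rat miR-1), 0.533 to 1.26 (mouse miR-1 and miR-133a), 0.123 to 1.65 (mouse miR-1 and miR-133b), -0.403 to 0.734 (rat miR-1 and miR-133a), -0.430 to 0.117 (miR-133b and rat miR-1) and -0.716 to 0.614 (miR-133b and miR-133a, also -0.141 and -0.127 without OLETF replicate 1 or 2). The lowest well and the absence of a Ct limit could not change these gaps, as each card A assay has 1 well under 35. Card B had fewer than 50 assays measured in all samples, so the reference of the 50 most abundant assays was there the card median. A Ct limit of 32, and replicates 1 and 2 alone, left too few miR-206 values to fit. The same held for miR-206 without OLETF replicate 2 or OLETF replicate 3. Leaving out OLETF replicate 1 could not change its difference, as that sample was not measured. The miR-206 ranges with 1 sample left out thus come from LETO samples.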
